A study of Homo sapiens with 3 samples.

Results

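Integrins, laminins and focal adhesion genes were taken as a list of 37 named genes: integrin subunits, laminin chains, fibronectin, 3 collagens, and the proteins that join integrins to actin and to signalling. Every transcript of these genes was looked up in the authors' deposited table of fold changes. The table gave a value for 35 of the 37 genes, through 62 transcripts, out of 12582 genes and 20104 transcripts in all. Values for ITGB6 and COL17A1 were not analysed here.

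The cells were SW480, an established human colon adenocarcinoma line. The shRBMS1 group was 1 library of cells transduced with a short hairpin RNA against RBMS1, an RNA-binding protein. The shControl group was 2 libraries of cells transduced with control hairpins, and the labels do not say whether both carry the same one. All 3 were total RNA depleted of ribosomal RNA and collected 48 hours after transduction. A single hairpin stands for the knockdown, so an effect of RBMS1 and an effect of that hairpin cannot be told apart. The authors had reduced the libraries to 1 log2 fold change per transcript, shRBMS1 over shControl. With 1 shRBMS1 library there is no replicate check, no test and no error on any value below, and the depth behind each value is unknown.

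Integrins are pairs of an alpha and a beta subunit that span the plasma membrane. Outside the cell they bind matrix proteins, and in epithelia chiefly laminins of the basement membrane, collagens and fibronectin. Inside the cell their tails recruit talin and kindlins, which link to actin through vinculin and alpha-actinin, and the focal adhesion kinase with its adaptors, which signal to the cell. The integrin of alpha6 and beta4 instead anchors keratin filaments in hemidesmosomes.

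Most of these genes lay below 0 in the knockdown, by small amounts. Each gene was given 1 value, the median over the transcripts that the authors' deposited table holds for it. In bulk RNA, fewer cells with a transcript and less of it per cell cannot be told apart. Of the 35 genes with a value, 29 were below 0, against 48.5% of all genes. Their median was −0.32, or 80.3% of control, while that of all 12582 genes was 0.01. The list held 20 genes below the lower quartile of all genes and 4 above the upper quartile. Lower by at least 1 on the log2 scale, which is a 2-fold difference, were 4 genes: ITGB8, COL13A1, LAMB3 and TNS4. All genes gave a background of 3.96% lower by that much. Higher by at least 1 were 2 genes, COL26A1 and FERMT2, against 3.95% of all genes. Just short of the threshold stood PXN at −0.99 and FN1 at −0.97, both medians over several transcripts of the authors' deposited table. With a threshold of 1.5-fold, 10 of the 35 genes were lower and 2 higher, against 10.4% and 8.25% of all genes.

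**Figure D1:**
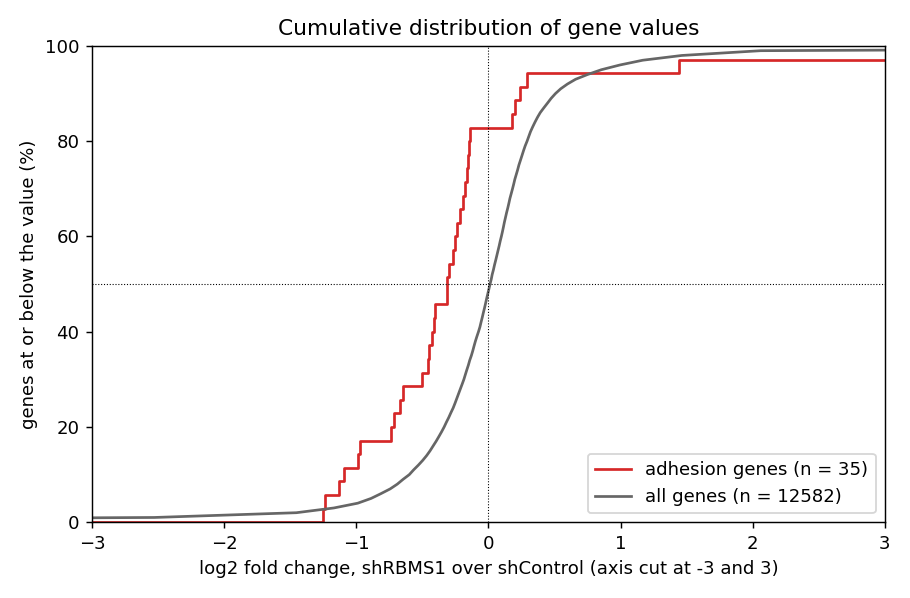
Cumulative share of genes (y axis, %) at or below each log2 fold change, shRBMS1 over shControl (x axis, shown between −3 and 3), for the 35 adhesion genes in red and all 12582 genes in grey. The red curve lies left of the grey one through the middle of the range, with medians of −0.32 and 0.01, and 1 adhesion gene, COL26A1, lies off the axis at 6.25.

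The direction of the table was set by RBMS1, whose 2 transcripts stood at 32.5% and 39.1% of control in the authors' deposited table. If the ratio ran the other way, every sign here would turn. Of 11 marker genes of colon epithelium, 7 had a value, and 6 of these were below 0 with a median of −0.43, so epithelial markers lay on the same side of 0 as most adhesion genes. The authors' deposited table had VIL1, the microvillus protein villin, lowest, at −2.33. Their part in the adhesion values was not tested. No value was seen for the 8 fibroblast and 6 endothelial markers looked up, and of 9 leukocyte markers only lysozyme, LYZ, had one, at −0.68 in the authors' deposited table.

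RBMS1 binds A+U-rich sequence, AUAUA among it, mostly in 3′ untranslated regions. The following windows show the first such match, in DNA letters, in the annotated 3′ untranslated region of 8 of the genes, with the match in capitals and 12 bases on either side. They were chosen, with the values known, to span the genes with the most matches (ITGB8, ITGAV and ITGA2), genes near or past −1 with a single match (TNS4 and FN1), the laminin chain with 3 matches in 418 bases (LAMA3), and 2 genes above 0 (LAMC1 and FERMT2).
ITGB8, chr7:20410229-20410257, plus strand: cactttactgtaATATAtaacttatttag
ITGAV, chr2:186677539-186677567, plus strand: tttattcaatgtATATAagacaggtagtg
ITGA2, chr5:53091299-53091327, plus strand: ggagagggggcgATATAgagaataaggca
TNS4, chr17:40475871-40475899, minus strand: gcagaggcccccATATActctgctacagc
FN1, chr2:215360826-215360854, minus strand: ttcatctatttgATATAagacaccttcgg
LAMA3, chr18:23954823-23954851, plus strand: catgtgtattttATATAaaaatcccattt
LAMC1, chr1:183144158-183144186, plus strand: cctttgagattcATATAtagcctttaaca
FERMT2, chr14:52858177-52858205, minus strand: tatcatgttatgATATAataaacttgaat
Coordinates are of hg38, and the sequences are those of GENCODE 29 transcripts linked to the RefSeq entries. The FN1 window lies beyond the RefSeq end of that gene, which is at 215360865 on the minus strand. Its match is thus held only by linked GENCODE entries that run past that end, those with a 3′ untranslated region of 1101 bases. FN1 is still counted with a match below. Of 33 genes of the list with an annotated 3′ untranslated region, 17 held at least 1 match, or 51.5%, against 58.8% of 11242 genes of the table. ITGB8 held 16 matches in 5757 bases, ITGAV 14 in 3609 bases and ITGA2 10 in 4180 bases. The gene values of the 17 with a match had a median of −0.43 and 14 lay below 0. Those of the 16 without a match had a median of −0.31 and 13 lay below 0. Of all genes, the 6611 with a match had a median of 0.02 and 3193 lay below 0, and the 4631 without a match had a median of −0.0044 and 2335 lay below 0. Any part of RBMS1 binding in these values was not tested.

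**Figure D2:**
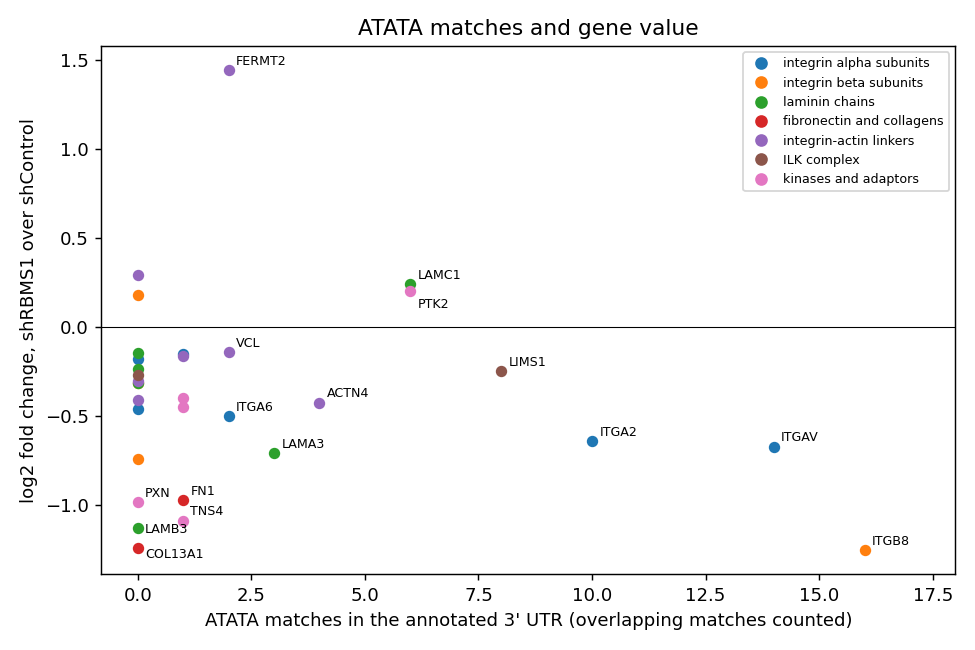
Number of ATATA matches in the annotated 3′ untranslated region (x axis, overlapping matches counted) and log2 fold change, shRBMS1 over shControl (y axis), 1 point per gene, coloured by role; COL26A1, with 0 matches and a value of 6.25, is left out of the plot. ITGB8, with 16 matches, lies at −1.26, LAMC1 and PTK2, with 6 each, lie above 0, and genes with 0 matches lie between −1.24 and 0.29.

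All 6 alpha subunits lay below 0, with a median of −0.48, though ITGAV and ITGA2 lay above 0 when read from their least changed transcript. ITGAV, which pairs with several beta subunits to bind fibronectin, vitronectin and latent TGF-beta, was at −0.67 or 62.7% of control by the middle one of 3 transcripts of the authors' deposited table. ITGA2, the collagen-binding subunit, was at −0.64 by the same median. The laminin-binding subunit ITGA6 stood at −0.50, midway between the 2 transcripts that the authors' deposited table puts at −0.63 and −0.38. The first of these carries a 130-base exon that the other lacks. ITGA5, the partner of ITGB1 in the classical fibronectin receptor, was at −0.46 on its 1 transcript in the authors' deposited table. The authors' deposited table had values nearer 0 for ITGA3, another laminin-binding subunit, at −0.15, and ITGAE, best known from intraepithelial lymphocytes, at −0.18. Both of these lie within the quartiles of all genes, −0.25 and 0.23.

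The 3 transcripts of ITGAV did not share a direction. In the authors' deposited table NM_002210 was at −0.67, NM_001144999 at 0.49 and NM_001145000 at −9.88. The last lies close to the lowest value of the whole table, −9.99, and no level stands beside it, so a large drop of an abundant transcript and the loss of a scarce one cannot be told apart. In the linked GENCODE entries, NM_001144999 starts 10.1 kb downstream and ends in a 3′ untranslated region of 149 bases, against 3609 bases for NM_002210. NM_001145000 starts 0.015 kb downstream of NM_002210 and has a 3′ untranslated region of 3605 bases. It lacks exons 5 and 6 of NM_002210, both coding. These exons are shown in capitals, with 12 bases of the neighbouring exon on either side, because they are the exons by which the 2 forms differ.
ITGAV exon 5, chr2:186630797-186630858, plus strand: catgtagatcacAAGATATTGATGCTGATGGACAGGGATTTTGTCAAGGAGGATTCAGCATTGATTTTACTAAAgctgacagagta
ITGAV exon 6, chr2:186633329-186633374, plus strand: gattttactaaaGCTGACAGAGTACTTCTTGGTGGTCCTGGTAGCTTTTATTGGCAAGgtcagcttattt
ITGA2 also had transcripts on both sides of 0. The authors' deposited table had its coding transcript at −0.64 and its non-coding ones at −0.74 and 0.29.

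Of the beta subunits, 3 of the 4 with a value lay below 0, and they spread more widely than the alpha subunits. ITGB8, which pairs with ITGAV to activate latent TGF-beta, was lowest of all 35 genes, at −1.26 or 41.9% of control on its 1 transcript in the authors' deposited table. The gene spans 20329766 to 20415754 on chromosome 7. ITGB4, the hemidesmosome subunit, was at −0.74, between transcripts that the authors' deposited table puts at −1.12 and −0.36. Each of these 2 transcripts has 1 exon that the other lacks. ITGB5, a vitronectin receptor subunit, was at −0.32 in the authors' deposited table. ITGB1, the common partner of ITGA2, ITGA3, ITGA5 and ITGA6, was at 0.18 or 113% of control on 1 transcript of the authors' deposited table.

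Set side by side as receptors, both subunits lay below 0 in the pairs of ITGA6 with ITGB4 (−0.50 and −0.74), ITGAV with ITGB8 (−0.67 and −1.26) and ITGAV with ITGB5 (−0.67 and −0.32). The ITGAV value was −0.09 without transcripts beyond 5 in either direction. In the pairs with ITGB1, the alpha subunit lay below 0 and ITGB1 at 0.18. These are gene values from the authors' deposited table, not levels, so which subunit is the scarcer one is not known from them.

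**Figure D3:**
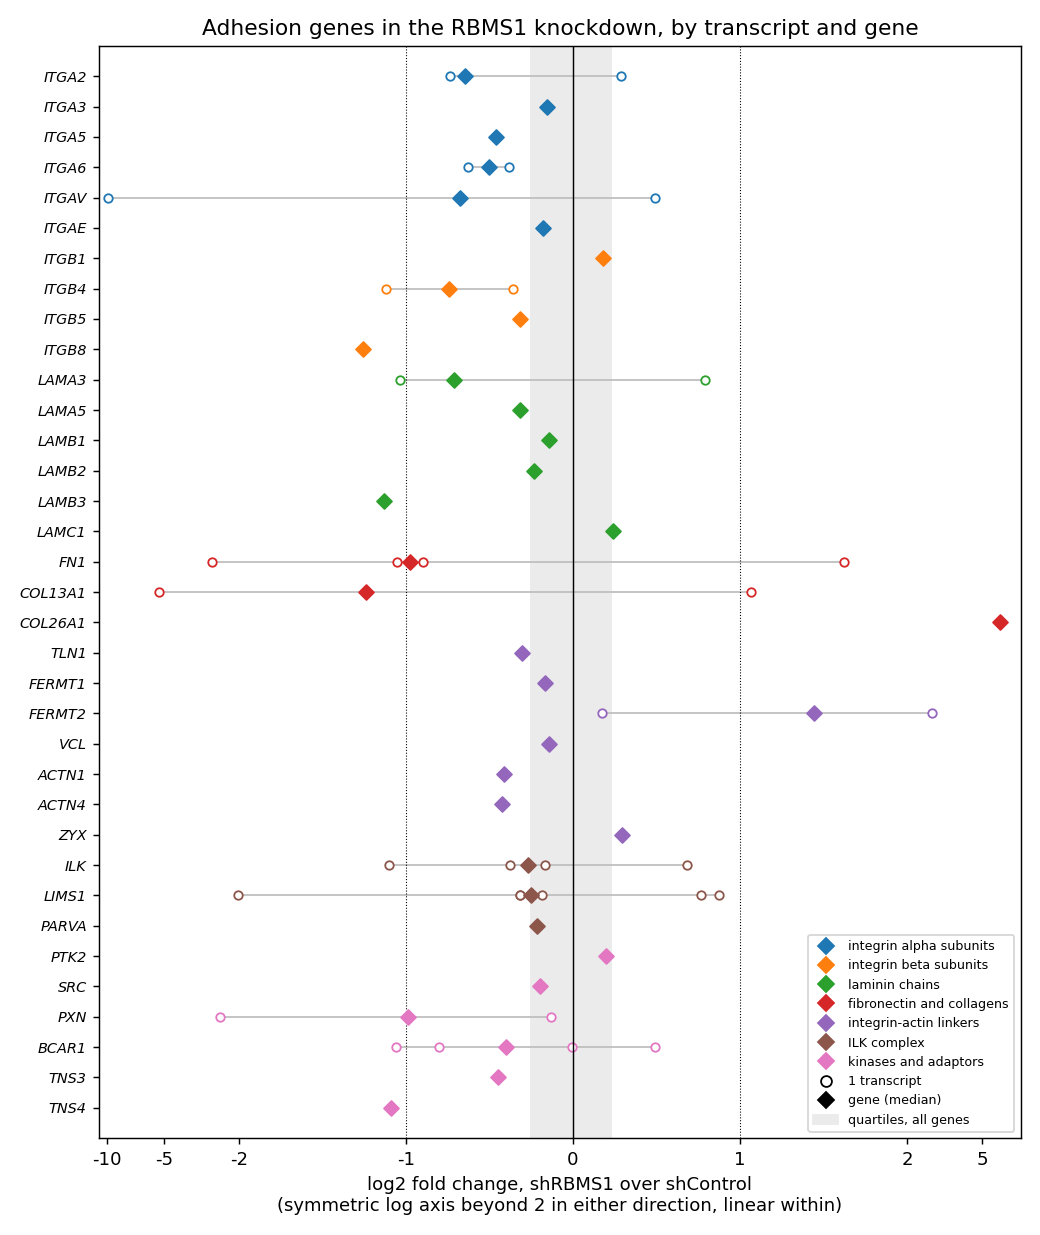
Log2 fold change, shRBMS1 over shControl (x axis, linear within 2 of 0 and logarithmic beyond), for the 35 adhesion genes (y axis), coloured by role; open circles are transcripts, filled diamonds gene medians, the grey band the quartiles of all genes and the dotted lines −1 and 1. Most diamonds lie left of 0, ITGB8 lies lowest at −1.26, and transcripts of ITGAV and COL13A1 reach −9.88 and −5.27.

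Among laminins, which are trimers of an alpha, a beta and a gamma chain, 5 of the 6 listed chains lay below 0. LAMB3, on chromosome 1 at 209614870 to 209652425, was lowest at −1.13 or 45.7% of control on its 1 transcript in the authors' deposited table. LAMA3, which joins LAMB3 in the laminin of epithelial anchoring contacts, was at −0.71 or 61.1% of control by the middle one of 3 transcripts of the authors' deposited table. The chains of the other epithelial laminins lay nearer 0. LAMA5 was at −0.32, LAMB2 at −0.23, LAMB1 at −0.15 and LAMC1 at 0.24 in the authors' deposited table, each on 1 transcript.

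LAMA3 is read from separate starts. In the linked GENCODE entries the long form, NM_198129, has 75 exons, and the short form, NM_000227, has 38 and starts 183.4 kb further downstream. The authors' deposited table put the long form at −0.71 and the short form at −1.04, so both lay below 0. A further transcript, NM_001302996, was at 0.79 in the authors' deposited table, and its exons were not compared here.

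Fibronectin, FN1, the main ligand of ITGA5 with ITGB1, was at −0.97 or 50.9% of control over 4 transcripts of the authors' deposited table. They ran from −2.77 to 1.62, and 3 of the 4 lay below 0. The transcripts differ, among other places, by cassette exons of 273 and 270 bases, known as the extra domains B and A. In the linked GENCODE entries NM_002026 and NM_001306129 also lack a stretch between 64.063 and 64.157 kb from the most upstream start. NM_212482 and NM_212476 hold that stretch within a continuous exon. The 3′ untranslated region of NM_212476 has 689 bases, against 1101 in the others. NM_212482 and NM_001306129 hold both exons, and the authors' deposited table had the one at −1.05 and the other at 1.62. NM_002026 lacks the 273-base exon and was at −0.89, and NM_212476 lacks both and was at −2.77 in the authors' deposited table. Transcripts with both exons thus stood on both sides of 0.

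The 2 collagens with a value lay far apart. COL13A1, a transmembrane collagen on chromosome 10 at 69801906 to 69959144, was at −1.24, the middle one of transcripts that the authors' deposited table puts at −5.27, −1.24 and 1.07. COL26A1, a secreted collagen on chromosome 7 at 101362388 to 101559024, was at 6.25 on 1 transcript in the authors' deposited table, the highest of the list. As for the lowest transcript of ITGAV, no level stands beside this value, and a large rise and the appearance of a scarce transcript cannot be told apart. Without transcripts beyond 5 in either direction, COL13A1 moved to −0.09 and COL26A1 had no value. ITGAV moved from −0.67 to −0.09 in the same setting.

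**Figure D4:**
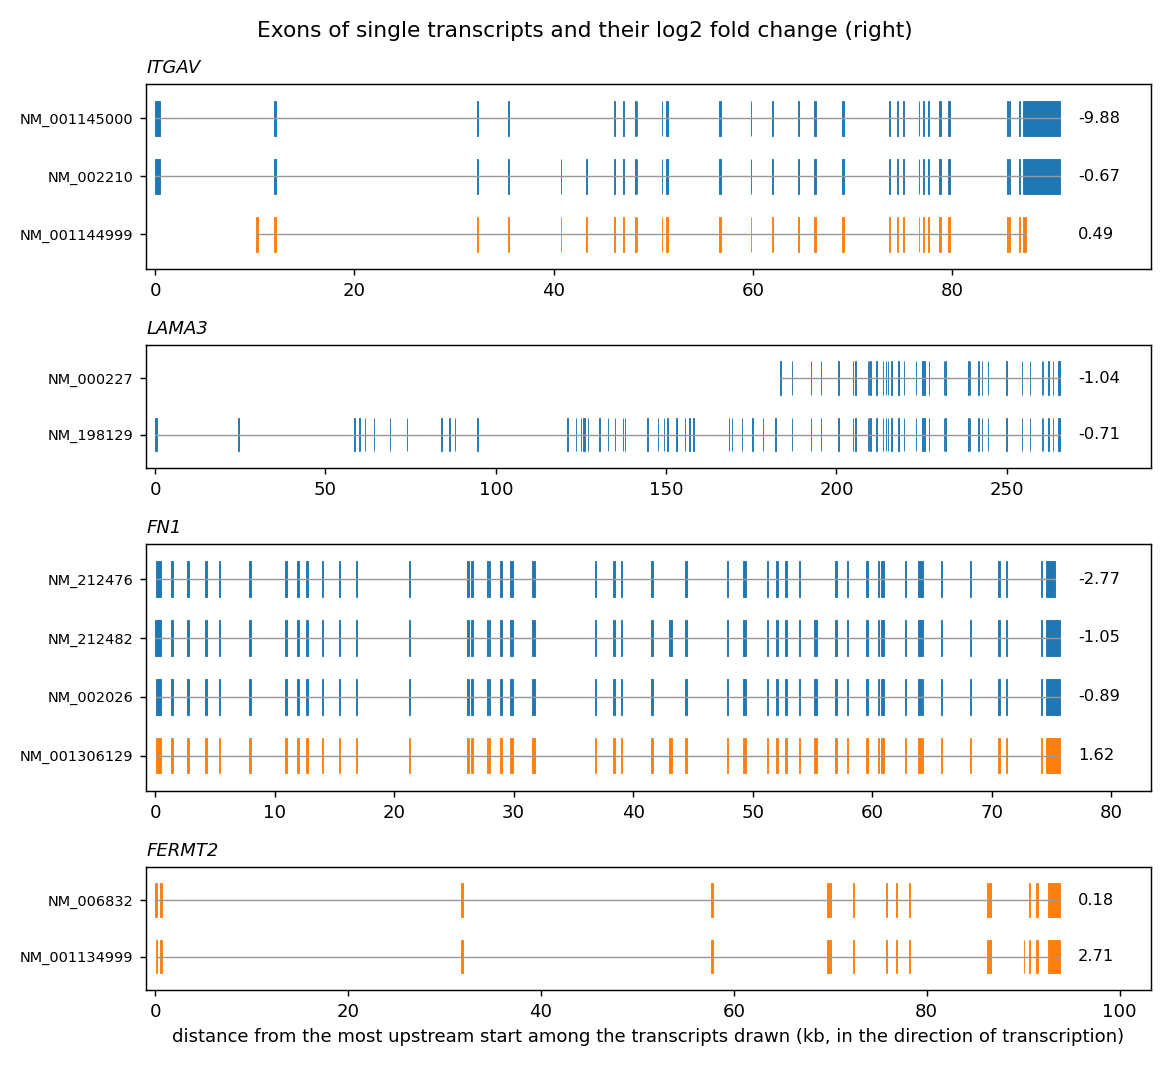
Exons (boxes) of single transcripts of ITGAV, LAMA3, FN1 and FERMT2 against the distance from the most upstream start drawn (x axis, kb), with each transcript's log2 fold change, shRBMS1 over shControl, at the right; blue transcripts lie below 0 and orange ones above. The drawn transcripts of ITGAV run from −9.88 to 0.49 and those of FN1 from −2.77 to 1.62, while both drawn forms of LAMA3 lie below 0.

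Genes of proteins that link integrins to actin had the group median nearest to 0, −0.16. TLN1, talin, which binds and activates beta tails, was at −0.30 in the authors' deposited table. VCL, vinculin, which binds talin under tension, was at −0.14 on 1 transcript of the authors' deposited table. For the actin crosslinkers ACTN1 and ACTN4 the authors' deposited table had −0.41 and −0.43. ZYX, the zyxin gene, whose product joins adhesions under force, was at 0.29 in the authors' deposited table. FERMT1, the kindlin of epithelial cells, was at −0.16 on 1 transcript in the authors' deposited table. FERMT2, a more widely expressed kindlin, was at 1.44, between transcripts that the authors' deposited table puts at 0.18 and 2.71. Its higher transcript, NM_001134999, carries a coding exon of 21 bases that NM_006832 lacks, shown in capitals with 12 bases of the neighbouring exons.
FERMT2 exon 13 of 16, chr14:52861014-52861034, minus strand: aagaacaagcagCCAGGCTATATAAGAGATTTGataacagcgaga
The value above 1 thus rests on the transcript with that exon, since the other lay within the quartiles of all genes.

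Genes of the complex of ILK, the pseudokinase that binds beta tails, with the LIM adaptor LIMS1 and the actin-binding parvin PARVA, lay close together. ILK was at −0.27, LIMS1 at −0.25 and PARVA at −0.21, each over all its transcripts of the authors' deposited table. Single transcripts of ILK had −1.10, −0.38, −0.17 and 0.68 in the authors' deposited table, and the highest, NM_001278442, lacks a 166-base exon that the others hold in the linked GENCODE entries. For LIMS1 the authors' deposited table gave −2.02 for NM_001193483, −0.32 for NM_001193485 and NM_001193482, −0.18 for NM_004987, 0.76 for NM_001193484 and 0.87 for NM_001193488. The 6 transcripts of LIMS1 each begin with an exon of their own in the linked GENCODE entries, and 4 of the 6 lay below 0. LIMS1 has near-identical partial copies in the genome, and the sources used here do not say how reads were divided among them.

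Among kinases and adaptors, 5 of 6 genes lay below 0. TNS4, a tensin of epithelial cells that binds beta tails without a full actin-binding region, was at −1.09 or 47.0% of control on 1 transcript in the authors' deposited table. It lies on chromosome 17 at 40475834 to 40501623. TNS3, a tensin that does hold the actin-binding region, was at −0.45 in the authors' deposited table. PXN, which encodes the scaffold paxillin, was at −0.99, the middle one of transcripts that the authors' deposited table puts at −2.51, −0.99 and −0.13. The lowest of these, NM_001080855, carries a 102-base exon that the others lack. BCAR1, the p130Cas scaffold, was at −0.40, with single transcripts that the authors' deposited table puts at −1.06, −0.80, −0.0070 and 0.49. The kinase SRC was at −0.19 and PTK2, the focal adhesion kinase, at 0.20 in the authors' deposited table, each on 1 transcript. Both kinases thus lay within the quartiles of all genes, while the gene values of PXN, TNS4, TNS3 and BCAR1 lay below the lower one. Some single transcripts of PXN and BCAR1 lay above that quartile.

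Genes measured through several transcripts had values that depend on which transcript is read. Of the 12 such genes, 10 had transcripts more than 1 apart, against 49.3% of all genes with several transcripts, and 8 had transcripts on both sides of 0, against 66.5%. Those 12 genes had a median of −0.66, against 0.03 for all genes with several transcripts. The 23 with 1 transcript had a median of −0.21 with 18 below 0. All genes with 1 transcript had a median of 0.0025, and 49.6% of them lay below 0. Transcripts of the list taken singly were below 0 in 46 of 62 cases, with 14 at or below −1 and 4 at or above 1. Of all transcripts in the authors' deposited table, 7.86% lay at or below −1 and 8.27% at or above 1. The share of all transcripts below 0 was not counted here.

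The listed genes also differed from all genes in the medians of transcript length and GC content. Their transcripts had a median length of 4955 bases and a median GC content of 55.6%, against 2758 bases and 49.2% over all genes of the table. The listed genes were spread over all 10 equal bins by GC content, with 1 to 6 in each. Across all genes, values were lower in long transcripts: the shortest of 10 equal bins by length had a median of 0.09 and the longest −0.11, and 10 of the 33 listed genes with a known length sat in the longest bin. With the median of each gene's length bin subtracted, the list's median was −0.33, and with that of its GC bin −0.33. Exons of 7 listed genes overlap those of a measured gene on the opposite strand, the most for ILK, which shares 1533 bases with TAF10, and VCL, which shares 1109 with AP3M1. The sources used here do not say whether reads were assigned by strand, so these pairs are uncertain. ZYX and EPHA1, which overlap by 82 bases, stood on opposite sides of 0, at 0.29 and −0.77 as gene values from the authors' deposited table. The partner also lay on the other side of 0 for LAMB1, TLN1 and ACTN4, and on the same side for VCL, ILK and PXN. PXN shares 918 bases with its partner and ACTN4 shares 868.

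Other genes of adhesion, in 6 further lists, together had a median nearer to 0. Of 149 further genes, 95 had a value and their median was −0.13. Of these 95, 55 lay below 0, 7 at or under −1 and 4 at or over 1, beside 48.5%, 3.96% and 3.95% of all genes. Other integrin ligands and matrix proteins had the lowest median, −0.48. Of these 13, 9 lay below 0, 2 at or under −1 and 1 at or over 1, beside the same shares of all genes. Among them CCN2, the connective tissue growth factor, was at −1.12 on 1 transcript and the adhesion molecule L1CAM at 1.34 over transcripts from −0.91 to 3.56 in the authors' deposited table. Other laminin chains and basement membrane proteins had a median of 0.01 with 2 of 5 below 0. Of these 5, the collagen IV chain COL4A2 was highest at 0.37 and the basement membrane proteoglycan AGRN, agrin, lowest at −0.37 in the authors' deposited table. Of 15 other integrin subunits only ITGA1 and ITGA7 had a value, and the authors' deposited table had them at 0.041 and −0.56.

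Other focal adhesion adaptors and signalling proteins had a median of −0.13, with 26 of 45 below 0. At or under −1 were 2 of the 45 and at or over 1 were 3, beside the same 3.96% and 3.95% of all genes. The Rac activator DOCK1 was at −1.25 over transcripts at −2.72 and 0.22, and the paxillin relative LPXN at 5.39 on 1 transcript, in the authors' deposited table. No level stands beside the LPXN value, and LPXN had no value without transcripts beyond 5 in either direction. Hemidesmosome and integrin partner genes had a median of −0.13 with 8 of 13 below 0. The tetraspanin CD9 was at −0.67 and the caveolin CAV1 at 0.84 in the authors' deposited table. Genes of integrin traffic and turnover had a median of −0.01 with 9 of 18 below 0. At or under −1 were 3 of the 18 and at or over 1 were 0, beside the same 3.96% and 3.95% of all genes. Of these 18 genes the endocytic adaptor DAB2 was lowest, at −1.69, and the sorting nexin SNX17 highest, at 0.48, in the authors' deposited table. The SNX17 value is a median over coding transcripts at −1.19 and −0.13 and non-coding ones at 1.09 and 3.14.

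**Figure D5:**
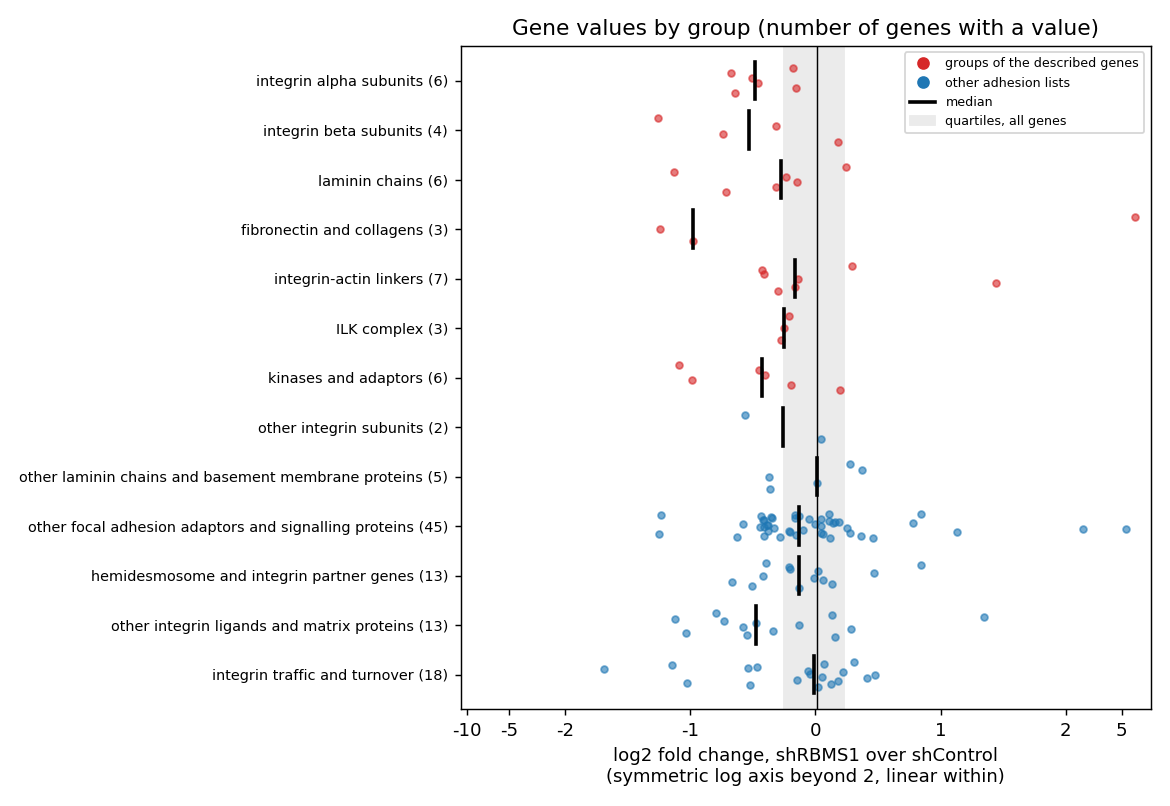
Gene values (x axis, log2 fold change of shRBMS1 over shControl, linear within 2 of 0 and logarithmic beyond) for the 7 groups of the described genes in red and 6 other adhesion lists in blue, with the number of genes in brackets, medians as black bars and the quartiles of all genes in grey. Integrin alpha and beta subunits have medians of −0.48 and −0.53, and genes of integrin traffic and turnover have a median of −0.01. Of these 18 traffic genes, 3 lie at or under −1 and 0 at or over 1, against 3.96% and 3.95% of all genes.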

How the data were processed

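Total RNA of 3 SW480 libraries was compared, 1 shRBMS1 and 2 shControl. STAR 2.5, Cufflinks, Cuffdiff and the hg38 build are named in the submitters' processing notes, without roles or settings. The deposited values are log2 fold changes, 1 for each RefSeq transcript, calculated by the authors. Per the file headers the column is a log fold change with no base or direction. Base 2 was taken from repeated values: 20 transcripts lay 1 away from a value found at least 3 times (tolerance 1.5e-05), while a distance of ln 2 gave 4 and one of log10 of 2 gave 5. The direction was taken from RBMS1.

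RefSeq gene names (GRCh38.p14, the assembly of hg38) matched 19818 of 20104 transcripts (98.6%). Transcripts of 1 gene were joined by their median. Exons, lengths, GC content and 3′ untranslated regions were read from GENCODE 29 transcripts linked to RefSeq entries, which 33 of the 35 genes had. The protein tails of beta subunits were not compared here. ATATA was counted on the transcript strand in the longest such region of a gene, with overlapping matches counted.

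With 1 shRBMS1 library no test was run and counts use thresholds of size alone. Genes named by rule were all listed genes, RBMS1, and the highest and lowest gene of each further list; VIL1, LYZ, TAF10, AP3M1 and EPHA1 were named after their values were seen. A gene of the further lists and 1 whole list are not reported here, and all counts and medians of further lists leave them out. The genes, lists and settings were chosen with earlier results of these data known. The list median was checked on shuffled gene values, narrowed in range, with known shifts added, and the joining of transcripts on made-up values. The sequence, site and exon steps were not checked in this way. Python 3.11.15, numpy 2.4.6, pandas 2.3.3 and matplotlib 3.10.9 were used.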

Additional observations from a re-analysis of the deposited data

How the results depend on the processing

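The list's median stayed below 0 in all 10 other settings tried, from −0.43 with the longest transcript of each gene to −0.18 with the least changed one. Counts moved more. Lower by at least 1 were 8 genes with the longest transcript, against 5.68% of all genes in that setting, and 12 with the most changed one, against 10.1%. At a threshold of 1.5-fold 10 were lower, against 10.4%. At a threshold of 2 on the log2 scale, which is 4-fold, 0 were lower and 1 was higher, against 1.27% and 1.08%. Higher by at least 1 was 1 gene with the longest transcript, among genes with a single transcript, and without transcripts beyond 5, against 5.40%, 3.31% and 3.64% of all genes. Among the 23 genes with a single transcript, 18 lay below 0, against 49.6% of all genes in that setting. The count with the longest transcript comes from fewer genes, 33, and the single-transcript counts from 23. For single genes, 9 of 35 moved by more than 1.5-fold in some setting, and 3 turned to the other side of 0 with the least changed transcript, COL13A1 at 1.07, ITGAV at 0.49 and ITGA2 at 0.29. Of the further lists, tried in the same settings after seeing the data, 3 changed sign. Other integrin subunits turned to 0.041 with single-transcript genes alone, which is the value of 1 gene, ITGA1, of the 2 measured. Hemidesmosome and partner genes turned to 0.51 with the most changed transcript. Other laminin chains and basement membrane proteins, at 0.01, turned to −0.37 with the least changed transcript, −0.046 with single-transcript genes alone and −0.0018 after centring on the median of all genes. Other causes of these moves were not tested. Leaving out a library was not possible, since the table holds 1 value per transcript over all libraries. No paired analysis was possible because that value has no replicates.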
